A study of Rattus norvegicus with 16 samples.

Results

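Chromatin remodellers and histone modifiers were examined as a group of 73 protein-coding genes. They were all genes whose symbols begin with Smarc or Setd, or with Chd, Kdm, Kmt, Arid, Hdac, Brd or Kat and a digit, among the 8420 protein-coding genes that a deposited RNA immunoprecipitation (RIP) table lists. Membership rested on symbol and on presence in that table, so chromatin genes that the table does not list were not analysed here. By symbol, the 73 were classed as 9 CHD remodellers, 14 SWI/SNF and ISWI ATPases and subunits, 1 other ARID protein and 16 methyltransferases. The rest were 14 demethylases, 6 acetyltransferases, 7 deacetylases and 6 bromodomain readers. The SWI/SNF and ISWI class took every Smarc symbol, including Smarcad1, which belongs to neither family.

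The study profiled N4-acetylcytidine (ac4C), an acetylated cytidine of RNA, in rat spinal dorsal horn, where pain fibres make their first relay. There were 3 replicates from wild-type rats with cancer-induced bone pain (CIBP) and 3 from normal wild-type rats (control), each an antibody-enriched (IP) library paired with its input library of total RNA. A separate RIP in CIBP had 2 IP and 2 input libraries and no normal counterpart, and no source used here states the target of its antibody. The labels call the replicates biological. Whether each is a single rat or a pool, and how the bone cancer was made, are stated in no source used here. The age and sex of the animals are not stated there either. The p-values of tests between CIBP and control lists therefore measure the spread between these samples. The p-value and FDR of a peak come from a single IP and input pair and measure no spread between samples. The deposited peak lists of the CIBP samples carry the abbreviation CFA in their names, and the sample titles, which say bone cancer pain, were followed.

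Remodellers of the CHD, SWI/SNF and ISWI families use ATP to slide or evict nucleosomes. Methyltransferases, demethylases, acetyltransferases and deacetylases write and erase marks on histone tails, and bromodomain proteins bind acetylated lysines. In neurons and glia these proteins help set which genes can be transcribed. The mark ac4C is made by the acetyltransferase Nat10 on RNA and has been linked to translation and RNA stability. It is distinct from the histone acetylation that the KAT and HDAC proteins act on.

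Each ac4C list held peaks called on 1 IP and input pair, with the authors' own fold enrichment of IP over input, p-value and false discovery rate (FDR). An FDR of at most 0.05 was required, because the CIBP 1 list as deposited held 50417 peaks, against 1173 to 2416 in the other 5 lists. Under that limit the lists held 919, 1240 and 899 peaks in CIBP 1, 2 and 3 and 916, 1074 and 1003 in control 1, 2 and 3. The files used state no read depth, which leaves the number of reads behind a peak unknown. Markers of neurons (5 of 8 fixed genes listed), astrocytes (6 of 6), oligodendrocytes (6 of 6), microglia (5 of 6) and endothelium (2 of 3) were in the RIP table, and 0 of 4 markers of muscle and bone were. Among the neuronal markers Snap25, Syt1 and Map2 were not listed there, while the neurofilament genes and Rbfox3 were. That table lists only genes past the authors' limits on IP over input. Whether a marker is listed therefore does not show how much of its RNA, or of its cell type, the tissue held. In whole tissue, fewer cells of a type and less RNA per cell cannot be told apart.

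Chromatin genes carried ac4C peaks in both groups, and their numbers per list did not separate CIBP from control. Under the FDR limit, 5, 12 and 15 of the 73 genes had a peak in CIBP 1, 2 and 3, against 12, 17 and 9 in control 1, 2 and 3. The CIBP lists averaged 10.7 ± 5.13 genes and the control lists 12.7 ± 4.04 (SD, n = 3 each), a difference of -2 genes (two-sided exact permutation test, p = 0.7, where 0.1 is the smallest p that 3 against 3 allows). The groups overlapped, with CIBP 1 the lowest list and control 2 the highest. As a percentage of all listed protein-coding genes with a peak, chromatin genes made up 0.684, 1.24 and 2.24% in CIBP 1, 2 and 3, against 1.71, 2.06 and 1.13% in control 1, 2 and 3 (exact permutation p = 0.8). With all peaks as deposited the counts were 65, 19 and 17 genes in CIBP 1, 2 and 3, against 14, 24 and 13 in control 1, 2 and 3, and the difference turned to 16.7 genes (exact permutation p = 0.5). CIBP 1 held 65 of these genes, and 269 of its 273 chromatin gene peaks above the FDR limit had the same fold of 10.6.

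**Figure D1:**
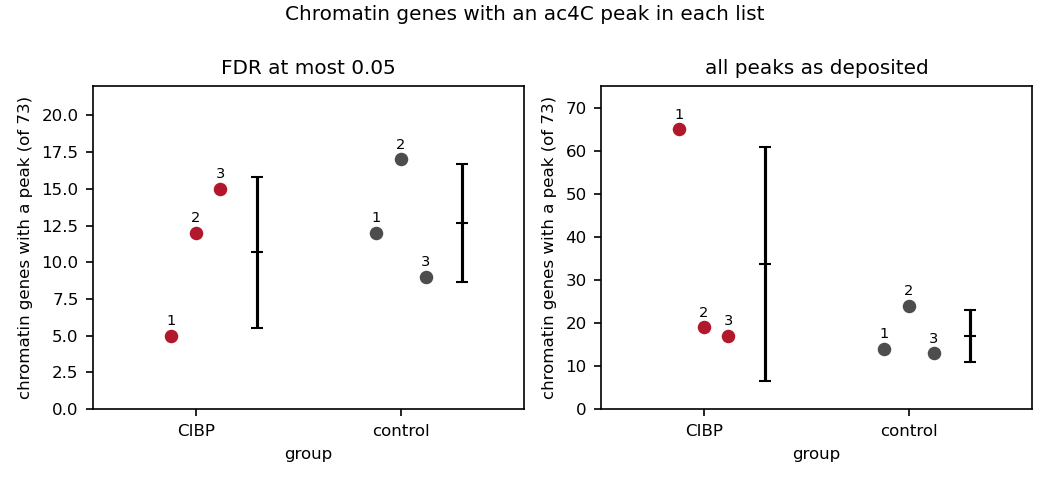
Number of the 73 chromatin genes with an ac4C peak (y axis, genes) in each CIBP and control list (points, numbered by replicate), with the mean and SD of 3 lists as bars, at an FDR of at most 0.05 (left) and with all peaks as deposited (right). CIBP lists held 5, 12 and 15 genes and control lists 12, 17 and 9 under the limit; CIBP 1 alone reached 65 as deposited.

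Over the 6 lists, 40 of the 73 genes (54.8%) had a peak under the FDR limit, beside 37.4% of all 8420 protein-coding genes listed. In at least 2 lists there were 22 (30.1%), beside 12.8% of all. Transcript length was not analysed here. The mean RIP input signal came from other libraries and has no stated unit. Its median was 3.44 in the 40 genes with a peak and 2.35 in the 33 without. Over all 73 genes the median was 2.93, beside 3.33 in all listed protein-coding genes. The part of this signal in these shares was not tested. CHD remodellers had a peak in 9 of 9 genes, SWI/SNF and ISWI genes in 9 of 14, demethylases in 8 of 14, methyltransferases in 6 of 16, deacetylases in 3 of 7, bromodomain readers in 3 of 6 and acetyltransferases in 1 of 6. Without the FDR limit, 72 of 73 genes had a peak in some list, beside 91.2% of all, and Kmt5a, the histone H4 lysine 20 monomethyltransferase, was the exception.

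**Figure D2:**
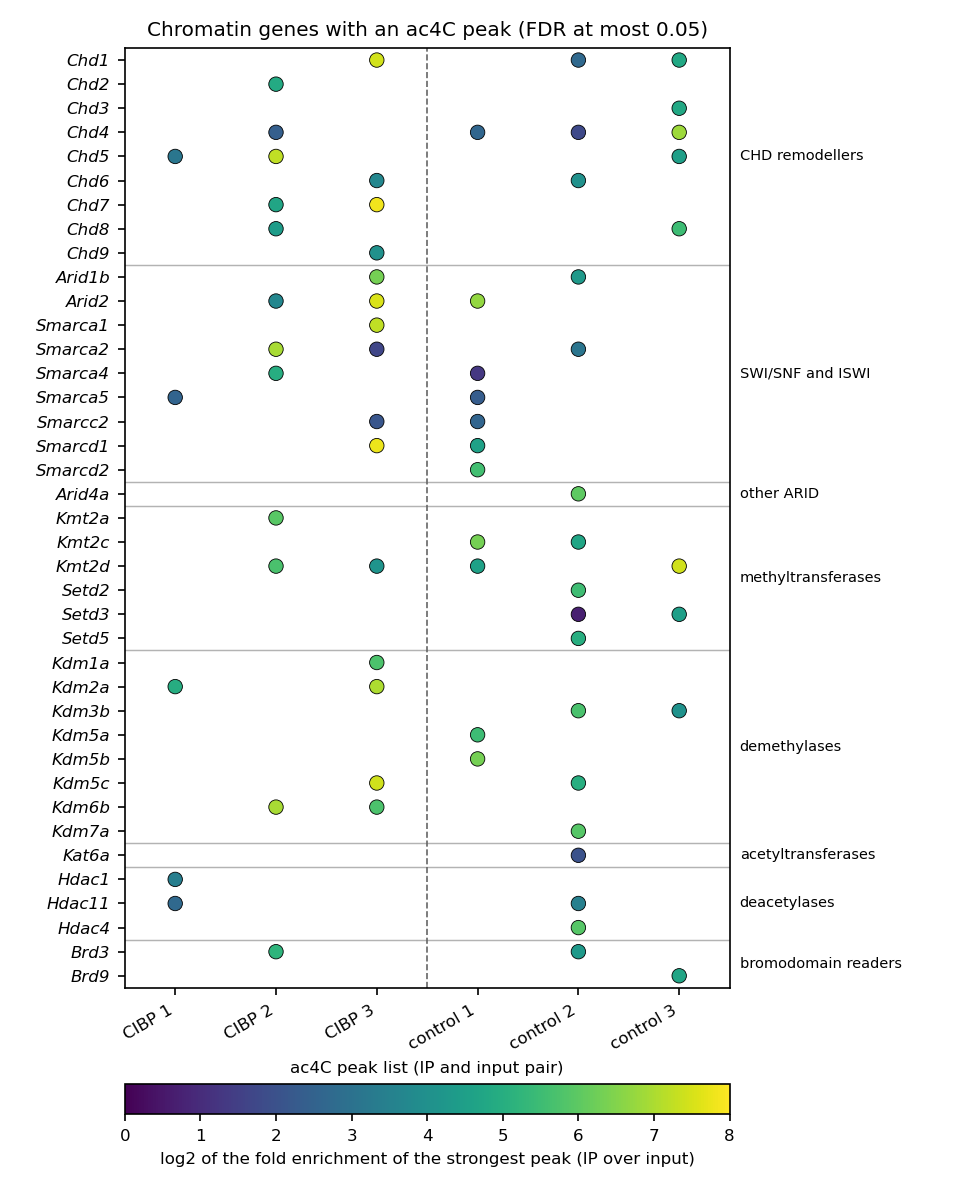
Chromatin genes with an ac4C peak at an FDR of at most 0.05 (rows, by role; 39 of the 40 are drawn) in the 3 CIBP and 3 control lists (columns); a point marks a peak and its colour the log2 of the authors' fold enrichment of the strongest peak. All 9 CHD genes had a peak somewhere, and Chd4 and Kmt2d had peaks in 4 of 6 lists.

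The 87 chromatin gene peaks had a median exonic width of 180 bp, as did the 5228 peaks of all listed protein-coding genes. Their median fold was 26.1, with a range of 1.62 to 228, and that of all listed genes was 19.6. Of the 87, 56 (64.4%) spanned more than 1 exon block, beside 56.3% of all. Within the lists the median fold of chromatin gene peaks was 8.82, 30.1 and 75.1 in CIBP 1, 2 and 3, against 24.0, 19.6 and 27.9 in control 1, 2 and 3. The medians of all listed genes were 15.9, 20.9 and 26.5 in CIBP 1, 2 and 3, against 13.4, 15 and 22.3 in control 1, 2 and 3. CIBP 1, with 5 peaks, was the list in which the chromatin genes lay below the rest. In 59 of the 87 peaks (67.8%, beside 59.4% of all) the fold and p-value were shared with another peak of the same list. None of the 87 shared bases with a peak of another gene.

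As in all listed genes, peaks of a chromatin gene seldom lay at the same place in different lists. The 87 peaks formed 82 segments of overlapping peaks, and 4 of these (4.88%) occurred in 2 or more lists, beside 7.10% of the 4845 segments of all listed genes. They lay in Kdm6b, Chd8 and, at 2 places, Chd4. In 16 of the 22 genes with peaks in 2 or more lists (72.7%), the nearest peaks of different lists were over 1000 bp apart on the genome, introns included, beside 49.0% of the 1075 listed genes of that kind. The median distance was 5505 bp, beside 928 bp in those 1075 genes, and gene length was not analysed here. All positions are on the rn6 build, which the submitters' notes name; exon and UTR positions within transcripts were not analysed here.

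Among the CHD remodellers, Chd4, the ATPase of the NuRD complex, had peaks in 4 lists. Its fold was 5.23 in CIBP 2, against 4.48 and 6.16 for its 2 peaks in control 1, 3.43 in control 2 and 114 in control 3. The control 1 and control 3 peaks shared 151 bp on chromosome 4, between 157613544 and 157617100 on the plus strand, so the same stretch had a fold of 4.48 in control 1 and 114 in control 3. The CIBP 2 and control 2 peaks lay further along and shared 1 bp. Chd5, a brain-enriched paralogue of Chd4, had peaks in CIBP 1 (fold 8.82), CIBP 2 (152) and control 3 (22.3). These were at separate places, the nearest 2.32 kb apart, with CIBP 2 the strongest.

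Chd8, a regulator of Wnt signalling and an autism gene in humans, had 1 recurring stretch on the minus strand of chromosome 15. It ran from 28613592 to 28613772 in CIBP 2 (fold 20.9) and from 28613652 to 28613832 in control 3 (fold 33.5), with 121 bp shared between the 2 groups. A second Chd8 peak in control 3 had a fold of 44.7. Chd1, which binds trimethylated histone H3 lysine 4, had a fold of 177 in CIBP 3, against 6.52 in control 2 and 27.9 in control 3. Chd6 had a fold of 12.9 in CIBP 3, against 16.3 for each of 2 peaks in control 2. Neither Chd1 nor Chd6 separated the groups. Chd2 (CIBP 2) and Chd9 (CIBP 3) each had a peak in 1 list.

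Chd7, the remodeller mutated in human CHARGE syndrome, met the criterion used for a gained gene, a peak in at least 2 of 3 CIBP lists and in no control list. Its fold was 26.1 in CIBP 2 and 228 in CIBP 3, the highest of the 87 chromatin gene peaks. The peaks were 84.3 kb apart on chromosome 5, from 21831451 to 21831631 and from 21915981 to 21917428, so they marked different parts of the gene. The weaker had the same fold and p-value as other peaks of its list, 102 in all. Chd7 was not called gained with all peaks as deposited, nor with the lists brought to equal length.

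In the SWI/SNF and ISWI genes, peaks were spread over the lists as 1, 3 and 6 genes in CIBP 1, 2 and 3, against 6, 2 and 0 in control 1, 2 and 3. The 2 alternative SWI/SNF ATPases both had peaks. Smarca2 (BRM) had folds of 61.0, 125 and 2.61 in CIBP 2 and 3.21 in CIBP 3, against 8.70 in control 2. Smarca4 (BRG1) had folds of 31.4 and 26.1 in CIBP 2, against 2.47 in control 1. Smarca4 was thus seen in 1 list of each group, and Smarca2 in 2 CIBP lists and 1 control list.

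The ISWI ATPase Smarca5 had a fold of 5.88 in CIBP 1 and 5.01 in control 1, at places 16.1 kb apart. Each of 2 core SWI/SNF subunits was seen in 1 list per group. Smarcc2 had a fold of 4.42 in CIBP 3 and 5.94 in control 1, and Smarcd1 of 216 in CIBP 3 and 24.0 in control 1. The DNA-binding subunit Arid1b of the BAF complex had folds of 70.7 and 79.5 in CIBP 3, against 19.6 for each of 2 overlapping calls in control 2. Arid2, of the PBAF complex, had folds of 13.1 in CIBP 2 and 186 in CIBP 3, against 22 and 104 in control 1. Each of these genes had a peak in both groups, and none repeated a place between lists under the limit. As deposited, CIBP 1 held an Arid2 peak with the start and end of the CIBP 2 peak (fold 10.6, FDR 0.0562). Smarcd2 had a fold of 48.1 in control 1, and the ARID protein outside SWI/SNF, Arid4a, a fold of 65.2 in control 2. Smarce1, Smarcad1, Smarcc1, Smarcd3 and Arid1a had no peak under the limit.

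**Figure D3:**
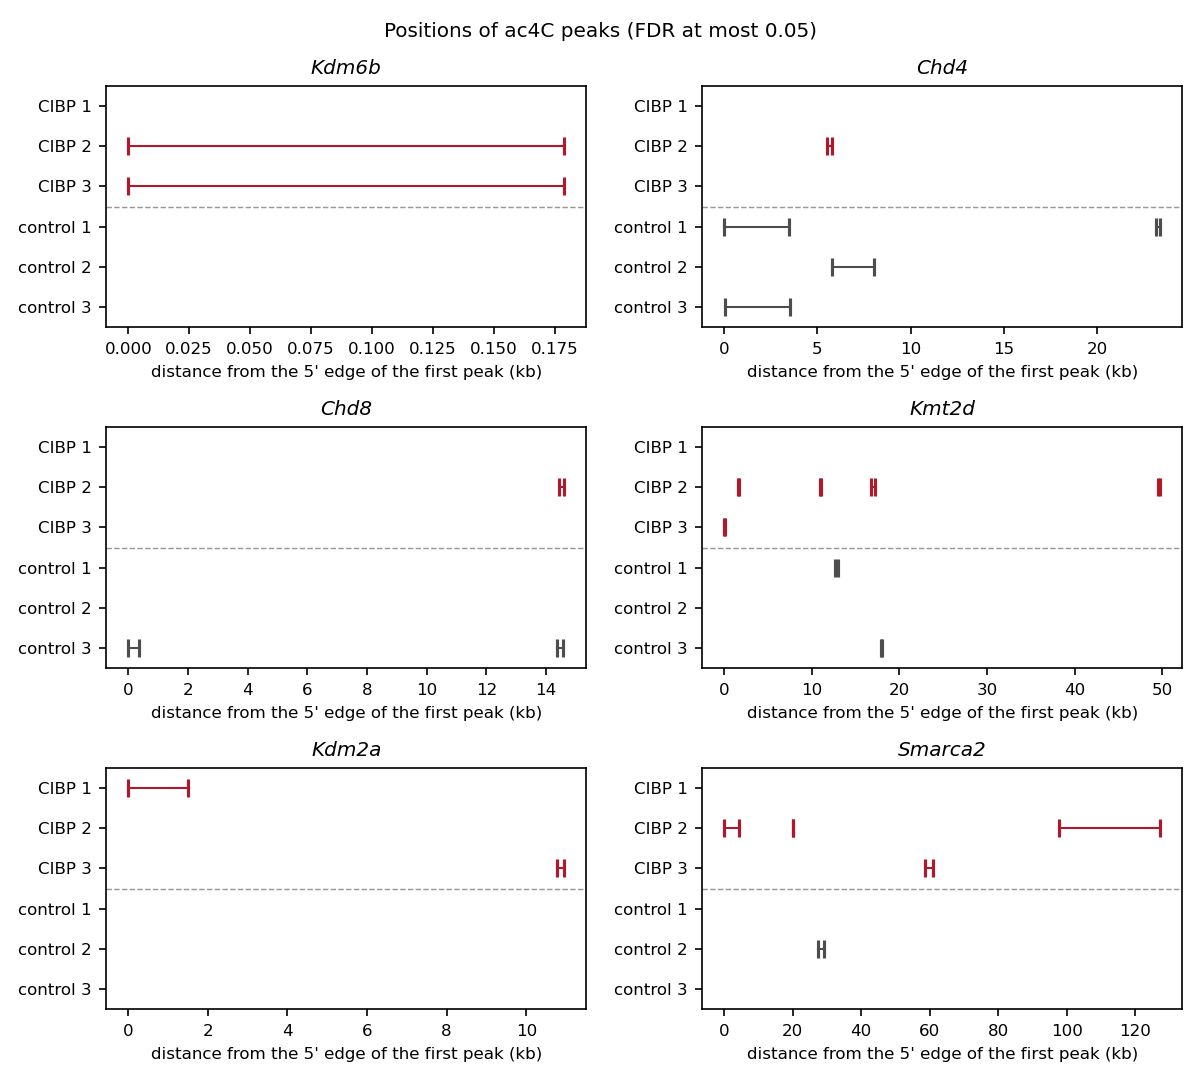
Positions of ac4C peaks at an FDR of at most 0.05 in 6 chromatin genes, as distance in kb from the 5′ edge of the first peak along the gene's strand (x axis), in the 3 CIBP and 3 control lists (rows); each bar runs from the first to the last base of a peak, introns included. The Kdm6b peaks coincided in CIBP 2 and 3, the Chd4 peaks of control 1 and 3 overlapped, and most other peaks lay apart.

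Of the methyltransferases, Kmt2d, which methylates histone H3 lysine 4 at enhancers, held the most peaks, 7 in 4 lists. The folds were 26.1, 52.3, 20.9 and 36.6 in CIBP 2 and 17.7 in CIBP 3, against 24.0 in control 1 and 173 in control 3. No place of Kmt2d recurred, the nearest peaks of different lists being 0.670 kb apart. Its paralogue Kmt2c met the criterion for a lost gene under the FDR limit. That criterion was a peak in at least 2 of 3 control lists and in no CIBP list. Kmt2c peaks had folds of 3.43 and 80.5 in control 1 and 26.1 in control 2, all on the plus strand of chromosome 4. The second of these, from 6246657 to 6250244, had a -log10 p of 304. The nearest Kmt2c peaks of different lists were 4.39 kb apart. As deposited, CIBP 1 held Kmt2c peaks of fold 10.6 and an FDR of 0.0562, and Kmt2c was not called lost.

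Setd3, known in mammals as the methyltransferase of an actin histidine, was also called lost. Its folds were 1.62 in control 2 and 22.3 in control 3, at places 0.993 kb apart on the minus strand of chromosome 6. The fold of 1.62 was the lowest of all 87 peaks, although its -log10 p was 17.2. As deposited, CIBP 1 held Setd3 peaks of fold 10.6 and an FDR of 0.0562, and Setd3 was not called lost. Setd2, which completes methylation of histone H3 lysine 36, had 2 peaks in control 2 with folds of 45.7 and 2.61, and Setd5 had 1 there with a fold of 32.6. Kmt2a (MLL1) had a fold of 60.6 in CIBP 2 alone. The other 10 methyltransferases had no peak under the limit.

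Kdm6b (JMJD3) is a demethylase that removes methyl groups from histone H3 lysine 27. Under the FDR limit it was the gene with an identical peak in 2 CIBP lists. That peak lay on the minus strand of chromosome 10, from 56006869 to 56007048, and had a fold of 125 and a -log10 p of 28.8 in CIBP 2 and a fold of 53.0 and a -log10 p of 32.8 in CIBP 3. CIBP 1 had no Kdm6b peak under the FDR limit, and 4 of fold 10.6 and an FDR of 0.0562 above it. No control list held a Kdm6b peak, with or without the limit. Of the 3 genes called gained, Kdm6b was the one whose peaks overlapped.

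Kdm2a, a demethylase of histone H3 lysine 36, was the other demethylase called gained. It had a fold of 31.7 in CIBP 1 (chromosome 1, 219577045 to 219578547) and of 128 in CIBP 3 (219567590 to 219567769), both on the minus strand and 9.28 kb apart. As deposited, CIBP 2 added a peak of fold 15.7 and FDR 0.127, so that Kdm2a had peaks in 3 of 3 CIBP lists and 0 of 3 control lists. Kdm3b, a demethylase of histone H3 lysine 9, was called lost, with a fold of 52.2 in control 2 and 16.7 in control 3, at places 34.6 kb apart on chromosome 18. The control 3 peak had an FDR of 0.0229, and at an FDR of at most 0.01 Kdm3b was not called lost. Nor was Kdm3b called lost as deposited, where CIBP 1 held Kdm3b peaks of fold 10.6 and an FDR of 0.0562. Kdm5c, an X-linked demethylase of histone H3 lysine 4, had a fold of 171 in CIBP 3 and 32.6 in control 2. Kdm5a and Kdm5b had peaks in control 1 alone, with folds of 44.9 for Kdm5a and 80.1 and 24.0 for Kdm5b. Kdm7a had a fold of 58.7 in control 2, and Kdm3a, Kdm4a, Kdm4b, Kdm4c, Kdm5d and Kdm6a had no peak under the limit.

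In all, 3 of 73 genes (4.11%) were called gained, beside 1.82% of all listed protein-coding genes, and 3 (4.11%) were called lost, beside 1.75%. Either call requires peaks in at least 2 lists, which 30.1% of the 73 had, beside 12.8% of all. Of the genes with peaks in at least 2 lists, 3 of 22 chromatin genes were called gained, beside 153 of all 1075. Called lost were 3 of those 22, beside 147 of the 1075. Gained and lost chromatin genes were equal in number, and each rested on peaks in 2 lists of 3. Each also had at least 1 peak whose fold and p-value were those of other peaks of its list. Peaks so alike numbered 102 for Chd7 (CIBP 2), 52 for Kdm2a (CIBP 1) and 6 for Kdm6b (CIBP 2). They numbered 61 for Kmt2c (control 2), 83 for Setd3 (control 3), and 19 and 133 for Kdm3b (control 2 and 3). Leaving out CIBP 3 left 0 gained genes and leaving out CIBP 2 left 1, Kdm2a; leaving out control 2 left 0 lost genes and leaving out control 3 left 1, Kmt2c. As deposited, 9 genes were called gained (12.3%, beside 11.6% of all) and 1 lost (1.37%, beside 0.760%). The 9 were Kdm2a, Kdm6b, Kdm1a, Kmt2a, Kmt2b, Kat6b, Brd8, Arid1a and Smarca1, and each had CIBP 1 peaks at the recurrent fold of 10.6. Arid1a, Brd8, Kat6b and Kmt2b had no peak that met the limit in any list.

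Kdm1a (LSD1), the demethylase of the CoREST complex, repeated a start among these. Its peak began at 154909183 on chromosome 5 in CIBP 2 (fold 10.5, FDR 0.127) and in CIBP 3 (fold 53.0, FDR 2.19e-07). Smarca1, an ISWI ATPase, had a fold of 150 in CIBP 3. The gene called lost as deposited was Chd3, a NuRD ATPase, with folds of 4.81 in control 1 (FDR 0.114), 9.79 for each of 2 peaks in control 2 (FDR 0.0646), and 16.7 and 27.9 in control 3. Only the control 3 peaks of Chd3 met the limit. Chd3 and Kdm6b lie near each other on chromosome 10, and the Kdm6b peak lay 41.7 kb from the nearest control peak of Chd3.

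A peak under the limit was seen in 3 of 7 deacetylases and 3 of 6 bromodomain readers. Hdac11 had a fold of 6.55 in CIBP 1 and folds of 3.73 and 10.9 in control 2, the nearest of them 0.716 kb apart. Hdac1, a catalytic subunit of NuRD and Sin3 complexes, had a fold of 10.6 in CIBP 1. That Hdac1 peak had an FDR of 0.0398, near the limit, and the fold and p-value of other peaks of its list, 20 in all. The class IIa deacetylase Hdac4 had a fold of 58.7 in control 2. Brd3, a BET protein, had a fold of 36.6 in CIBP 2 and 19.6 in control 2. Brd9, a subunit of a SWI/SNF variant, had a fold of 26.1 in control 3. Of the acetyltransferases Kat6a had a peak, with a fold of 4.08 in control 2.

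In the RIP of the CIBP dorsal horn, every chromatin gene was higher in both IP libraries than in both input libraries, a direction set by the table itself, which lists genes with a log2 fold above 1. The members' log2 folds in the authors' deposited table had a median of 2.31, with an interquartile range of 2.07 to 2.58, and ran from 1.02 in Kmt5c to 3.05 in Kdm3a. The median over all listed protein-coding genes in the authors' deposited table was 2.40, and 33 of the 73 lay above it. The log2 ratio of IP to input, computed for each pair, had a median over the 73 genes of 2.37 in pair 1 and 2.33 in pair 2. The 2 pairs of a gene differed by a median of 0.20 and by at most 0.79 (Chd1), which sets the precision of 1 gene's value. IP against input was not tested, since the table lists only genes already past its limits.

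**Figure D4:**
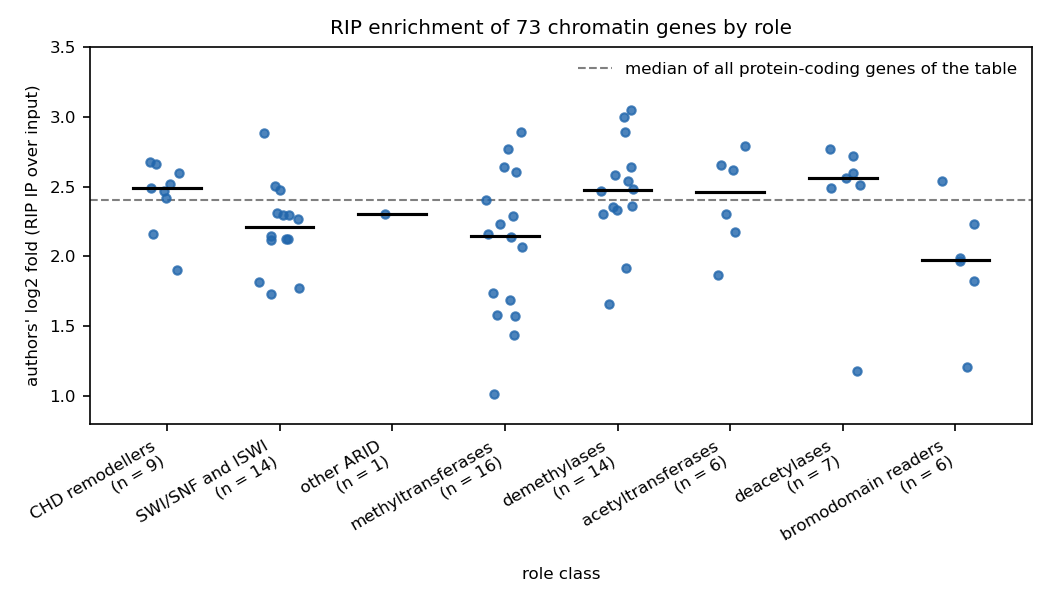
Authors' log2 fold of RIP IP over input (y axis) for the 73 chromatin genes (points) by role class (x axis), with the class median as a bar and the median of all 8420 protein-coding genes of the table, 2.40, as a dashed line. Methyltransferases spread most widely, from 1.02 to 2.89, and 5 of 6 bromodomain readers lay below the dashed line.

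By role, the median log2 fold in the authors' deposited table was 2.56 in deacetylases, 2.49 in CHD remodellers, 2.48 in demethylases and 2.46 in acetyltransferases. The medians from the authors' deposited table were lower in SWI/SNF and ISWI genes (2.21), methyltransferases (2.15) and bromodomain readers (1.98). Among classes of more than 1 gene the same 4 led in each pair taken alone, with class medians of 2.57 to 2.60 in pair 1 and 2.26 to 2.69 in pair 2, and bromodomain readers were lowest in each, at 2.096 in pair 1 and 1.81 in pair 2. Of the CHD genes 7 of 9 lay above the table's median, of the deacetylases 6 of 7, of the SWI/SNF and ISWI genes 3 of 14 and of the bromodomain readers 1 of 6. The 40 genes with an ac4C peak had a median log2 fold of 2.30 in the authors' deposited table, and the 33 without a peak 2.40.

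The demethylases held the 3 highest values. Kdm3a, a demethylase of histone H3 lysine 9, had normalised signals of 14.4 and 13.5 in IP libraries 1 and 2, against 1.83 and 1.55 in input libraries 1 and 2. Its log2 fold of 3.05 in the authors' deposited table was at the 93.4th percentile of the listed genes. Kdm4c followed at 3.00 and Kdm6a (UTX) at 2.89 in the authors' deposited table. In other classes the highest log2 folds of the authors' deposited table were 2.89 for Setd3, 2.88 for Smarce1, 2.79 for Kat8, 2.77 for Hdac3, 2.68 for Chd6 and 2.54 for Brd8. Smarce1 is the HMG-box subunit of SWI/SNF, Kat8 (MOF) acetylates histone H4 lysine 16, and Hdac3 is the catalytic subunit of the NCoR complex.

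The lowest value was that of Kmt5c, which adds further methyl groups to histone H4 lysine 20. Its signals were 5.93 and 5.61 in the IP libraries, against 2.52 and 3.17 in the input libraries, with a log2 fold of 1.02 and an FDR of 1.25e-05 in the authors' deposited table. That FDR was the largest among the 73. Hdac7, a class IIa deacetylase, had 4.36 and 5.35 in the IP libraries, against 2.18 and 2.11 in the input libraries. The log2 folds of the authors' deposited table were 1.18 for Hdac7, 1.90 for Chd5, 1.87 for Kat6a, 1.73 for Smarcd2 and 1.66 for Kdm6b, the lowest of their classes.

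Paralogues were set side by side in their RIP enrichment. Of 14 fixed sets with at least 2 listed genes, 11 had a highest member above the lowest in both pairs by ratios that did not overlap. The extremes were picked from the values then compared, so this count was not tested and says nothing particular to paralogues. Over all listed protein-coding genes, the log2 folds of the authors' deposited table had an interquartile range of 2.07 to 2.70, and the pairs of a gene differed by a median of 0.24. Kdm6a and Kdm6b, which act on the same histone residue, differed in the ratio of IP to input in both pairs. Kdm6a had 10.96 and 11.95 in the IP libraries, against 1.53 and 1.56 in the input libraries. Kdm6b had 5.997 and 6.52 in the IP libraries, against 1.74 and 2.22 in the input libraries. The log2 ratio was higher in Kdm6a by 1.06 in pair 1 and 1.38 in pair 2.

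Kmt2c and Kmt2d, the paired enhancer methyltransferases, also parted. Kmt2c had 13.9 and 15.95 in the IP libraries, against 1.97 and 2.39 in the input libraries, and Kmt2d had 15.3 and 14.7 in the IP libraries, against 4.96 and 5.14 in the input libraries. The log2 ratio of Kmt2c was higher by 1.18 in pair 1 and 1.22 in pair 2. In the authors' deposited table the log2 folds were 2.77 for Kmt2c, 2.14 for Kmt2a, 2.07 for Kmt2b and 1.57 for Kmt2d. Among class IIa deacetylases, Hdac5 exceeded Hdac7 by 1.74 in pair 1 and 1.15 in pair 2.

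**Figure D5:**
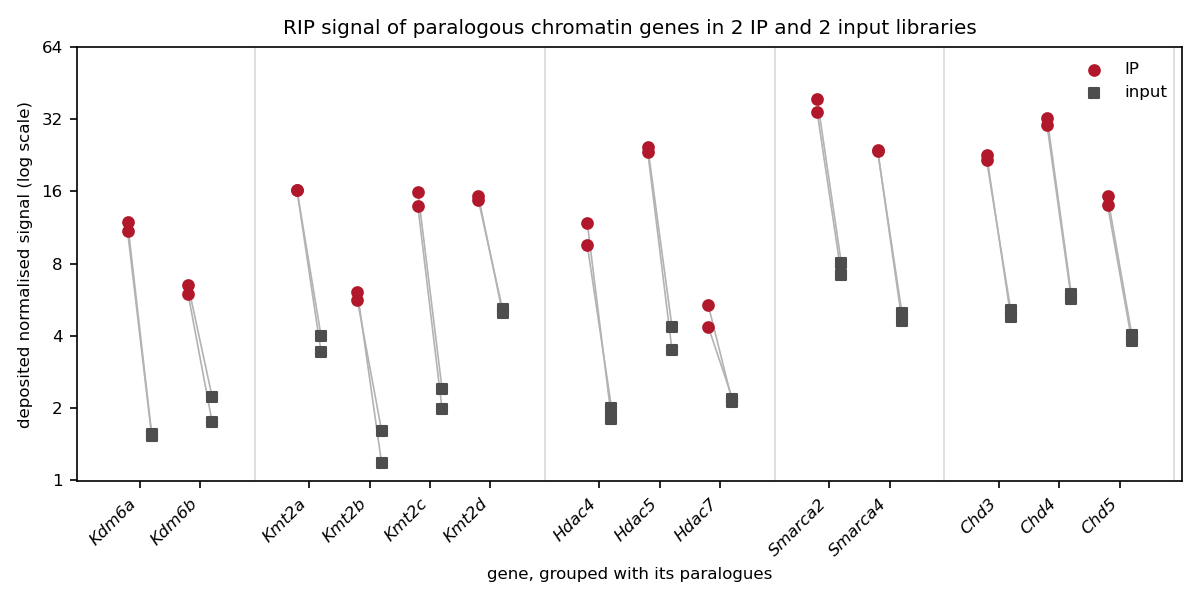
Deposited normalised RIP signal (y axis, log scale, unit not stated) of paralogous chromatin genes in 2 IP (circles) and 2 input (squares) libraries, with lines joining the libraries of a pair. The fall of each line is the log2 ratio; it was steeper in Kdm6a than Kdm6b, in Kmt2c than Kmt2d and in Hdac5 than Hdac7, and nearly equal in Smarca2 and Smarca4.

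Smaller steps that held in both pairs were those of Smarcd3 over Smarcd2 (0.38 and 0.78 in pairs 1 and 2), Chd4 over Chd5 (0.48 and 0.56) and Kat6b over Kat6a (0.51 and 0.37). Further ones were Smarcc1 over Smarcc2 (0.47 and 0.27), Smarca5 over Smarca1 (0.36 and 0.31), Arid1b over Arid1a (0.31 and 0.38) and Kdm5a over Kdm5b (0.11 and 0.22). The other 3 sets overlapped. Smarca4 differed from Smarca2 by -0.02 in pair 1 and 0.08 in pair 2, Hdac2 from Hdac1 by 0.37 and -0.28, and Setd1a from Setd1b by 0.11 and -0.00084. In these 3 sets the members differed by less than the spread between pairs, or changed order between them.

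The highest input signals of the 73 were those of Smarcc2, Kmt2e and Hdac11. Smarcc2, a scaffold subunit of neuronal SWI/SNF, had 72.6 and 68.6 in the IP libraries, against 16.8 and 15.7 in the input libraries. Kmt2e, a member of the MLL family, had 35.3 and 31.1 in the IP libraries, against 11.9 and 12.6 in the input libraries. Hdac11, the class IV deacetylase, had 59.6 and 63.4 in the IP libraries, against 8.83 and 9.82 in the input libraries. The unit of these signals is not stated, so the order between genes holds for the deposited values and not for molecules. Input was low for many members: 17 of 73 (23.3%) had a mean input signal below 2, beside 24.1% of all listed genes.

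A further 71 chromatin genes outside these symbol families, fixed as a list, gave 55 listed genes. Of these, 24 (43.6%) had an ac4C peak under the limit, beside 37.4% of all listed genes, and 9 (16.4%) had one in at least 2 lists, beside 12.8%. By list, 6, 8 and 6 of the 55 had a peak in CIBP 1, 2 and 3, against 6, 3 and 7 in control 1, 2 and 3. None was called gained, beside 1.82% of all, and 2 (3.64%) were called lost, beside 1.75%: the remodeller Ep400 and the PBAF subunit Pbrm1. Ep400, of the TIP60 complex, had nearly the same peak on chromosome 12 in both its lists, from 51948680 to 51960361 in control 1 (fold 3.56) and from 51948740 to 51960421 in control 2 (fold 8.70). Pbrm1 had a fold of 19.6 in control 2 and 11.2 in control 3, at different places. The median log2 fold of the 55 in the authors' deposited table was 2.20, from 1.52 in Mbd2 to 3.05 in the deacetylase Sirt2.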

How the data were processed

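Libraries were ac4C IP and input pairs (3 CIBP, 3 control) and RIP IP and input pairs (2, CIBP). Per the submitters' processing notes, the build was rn6 and the tools were HISAT2 2.1.0, featureCounts 1.6.3, DESeq2, cutadapt 2.5 and HOMER 4.10.4; no source used here names the peak caller. For each peak, per the file headers, the authors deposited a fold (a ratio of IP over input), log10 of a p-value and log10 of an FDR, which were used with the sign turned. The RIP table gives the authors' log2 fold, the authors' p-value and FDR, and 4 normalised signal values per gene deposited with no unit stated; each listed gene passed the authors' limits. Depth is unknown for all libraries.

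Peaks were joined to genes by Ensembl identifier. Peaks overlapped when exon blocks shared at least 1 bp on a strand; segments are chains of such peaks. CIBP and control lists were compared by a two-sided exact permutation test over 20 splits; gained, lost and recurring genes are counts beside those of all 8420 protein-coding genes, with no test. Named genes were those with peaks in at least 2 lists, those called gained or lost, the extremes of RIP log2 fold in each role, the 3 highest inputs, and fixed paralogue sets; other genes were named after their values were seen. One member that the rule names is not reported here by name; it remains in the counts and medians. Members, role classes and lists were chosen with earlier results of these data known. Alternatives were the lists as deposited, an FDR of at most 0.01, equal list lengths, a replicate block, omission of each replicate, another overlap, pseudocounts and a filter on low input. Scripts (Python 3.11.15, pandas 2.3.3, numpy 2.4.6) were tested on simulated data.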

Additional observations from a re-analysis of the deposited data

How the results depend on the processing

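The CIBP minus control difference in chromatin genes per list was -2 and turned to 16.7 with peaks as deposited. It ran from -4.17 (without CIBP 3) to 0.833 (without CIBP 1) when each list was left out, and was 0.167 without control 2. No alternative gave it an exact permutation p under 0.5, where 3 against 3 cannot pass 0.1. With a replicate block pairing equal numbers it stayed at -2 (exact p = 0.75) and the RIP median was 2.34; the numbers are not known to mark shared animals. Gained genes numbered 3, or 9 as deposited, and 0 to 4 with a list left out. Lost genes numbered 3, or 1 as deposited (none of those 3), and 0 to 4 with a list left out. Kdm6b was gained in all settings but those without CIBP 2 or CIBP 3. Its peaks under the limit lay in those lists alone, so leaving out any other list could not change the call. Genes with a peak in at least 2 lists numbered 22, or 44 as deposited, and 14 (without CIBP 3 or control 2) to 19 with a list left out. Recurring segments numbered 4, or 19 as deposited and 3 when 50% of the shorter peak had to overlap. The RIP median of 2.31 became 2.01 with a pseudocount of 1 and 0.92 with 10 (2.08 and 1.03 for all listed genes), 2.23 in the 33 members of higher input (2.40 for all such genes), and 2.33 to 2.37 in single pairs. Kdm3b was not lost at an FDR of at most 0.01, nor Chd7 gained at equal list lengths. Unknown depth limits every absence of a peak.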
